A study of Homo sapiens with 4 samples.

Results

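TGF-beta and activin signalling was described in MHCC-97H cells through 10 genes: the ligands TGFB1, TGFB2 and TGFB3, the activin subunits INHBA and INHBB, the receptors TGFBR1, TGFBR2 and TGFBR3, the latent complex protein LTBP1 and the induced matrix protein TGFBI. They were chosen by symbol and matched by Ensembl identifier, and they are 10 of the 58735 genes of the tables. MHCC-97H is an established line of metastatic hepatocellular carcinoma (HCC), and migrasomes (Migs) are vesicles that migrating cells leave behind on their retraction fibres. The RNA-seq asked how wild-type recipient cells responded over 24 h to PBS, to 2 μg of Migs from normoxic MHCC-97H cells (normo-Migs), to 2 μg of Migs from hypoxic MHCC-97H cells (hypo-Migs), or to 2 μg of Migs from hypoxic cells that lack CD147 (CD147KO-Migs). Each condition had 1 library, and all 4 libraries carry the same batch label. The recipients were wild type in all 4 conditions, so CD147 was missing only in the donor cells of the last condition. That knockout line was supplied to the authors, and the sources used here do not say whether it is 1 clone. The labels and the supplementary methods give normoxic donors for the normo-Migs, as followed here, whereas the main methods text gives hypoxic donors. The labels list several oxygen levels and 2 glucose levels for the donor cultures without saying which gave these Migs.

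TGF-beta is secreted as a latent complex, in which LTBP proteins tether the ligand to the extracellular matrix until integrins or proteases free it. The active ligand binds TGFBR2, which then phosphorylates TGFBR1, and TGFBR1 passes the signal to SMAD2 and SMAD3. TGFBR3 (betaglycan) is a co-receptor that presents TGFB2 in particular. Activins are dimers of INHBA or INHBB chains that bind separate receptors but signal through the same SMAD proteins. In liver tumours, TGF-beta is known both for arresting growth and for driving epithelial-mesenchymal transition.

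Between 33882496 and 40285223 reads were counted on genes in each library. With 1 library per condition, no difference could be set against the spread between cultures, and no p-value is given. The intervals below are exact 95% intervals that cover counting error only. A gene was called higher or lower where its log2 fold change was at least 1 in size, which is a 2-fold difference. The library labelled PBS stood apart from the others. In it, 251 genes had at most 3 reads while every Mig library had at least 100, and LTBP1 was 1 of the 251. No gene showed this pattern in any Mig library. Mitochondrial genes took 2.69% of the reads with PBS and 5.00% to 5.16% with Migs. Every comparison with PBS rests on this library, so the effect of Migs and any other difference of this library cannot be told apart in them. The comparisons among the 3 Mig libraries use the PBS library only for the scaling and the choice of tested genes.

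The cells were checked against marker lists. Of 11 hepatocyte or HCC markers, the keratins KRT8 and KRT18 were abundant, whereas ALB, AFP, APOB and TTR had 0 reads in all 4 libraries. SERPINA1 was called lower with all 3 Migs, at 25 reads with PBS and 2 to 10 with Migs. Of 8 fibroblast or stellate markers, 5 were called higher in each Mig library than with PBS (COL1A1, PDGFRB, DCN, LUM and DES). Of the 19895 genes with enough reads, 18.1% to 18.9% were called higher in these comparisons. The summed level of all 8 was 25.9 CPM with PBS and between 160.8 and 172.2 CPM with Migs, where CPM is reads per 1000000 reads on genes. COL1A2, a defining fibroblast collagen, had 0 reads in the Mig libraries and at most 3 with PBS, and LUM had 0 with PBS. The 6 endothelial markers summed to 3.54 CPM with PBS and to 4.72 to 5.68 CPM with Migs, with CLEC4G at 0 throughout. Of the 3 with enough reads, PECAM1 was called higher with all 3 Migs, at 16 reads with PBS and 118 to 146 with Migs. CDH5 was called lower with normo-Migs alone (84 reads with PBS and 30 with normo-Migs). STAB2 was called lower with CD147KO-Migs alone (13 and 5 reads). The 6 leukocyte or macrophage markers summed to 1.92 CPM with PBS and to 6.02 to 6.45 CPM with Migs, where CD163 was at 0. Of these, CSF1R and CD14 were called higher with all 3 Migs, and MARCO was called lower, at 21 reads with PBS and 0 to 4 with Migs. The part of other cells in the differences from PBS was not tested, and in bulk RNA fewer cells of a type and less RNA per cell cannot be told apart.

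All 10 genes had at least 10 reads in 1 or more libraries and were tested among 19895 genes. INHBA reached that minimum only through the 20 reads of the hypo-Migs library. Of the 10, 5 were called higher with hypo-Migs than with PBS (TGFBR1, INHBA, INHBB, LTBP1 and TGFBI) and none lower, where 18.9% of all tested genes were called higher and 11.6% lower. With normo-Migs, 4 were called higher (18.1% of all genes), and with CD147KO-Migs the same 4 were (18.3% of all genes). These were TGFBR1, INHBB, LTBP1 and TGFBI. INHBA counted as lower with normo-Migs at 0 reads against 2 (12.0% of all genes were called lower), but both libraries lie under the floor of 3 reads, so it is given no fold. Over the other 9 genes, the median log2 fold change against PBS was 0.73 for hypo-Migs, 0.61 for normo-Migs and 0.73 for CD147KO-Migs, beside 0.03 to 0.04 over all tested genes. The 3 comparisons share the PBS library and are not independent.

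The starts of 3 of the genes that stood higher with all 3 kinds of Migs are shown for their sequence context. The sequences are from RefSeq on GRCh38.p14, where all 10 genes had an entry, with 21 windows from 250 bases before to 50 bases after an annotated start. Only the bases upstream of both the RefSeq and the GENCODE start are printed, 5′ to 3′ on the plus strand, on which all 3 genes lie. Capitals mark CAGAC or its reverse complement GTCTG, the short element to which SMAD proteins are known to bind. INHBB covers chr2:120345886-120346135, LTBP1 covers chr2:32946703-32946952 and TGFBI covers chr5:136028738-136028894.
INHBB: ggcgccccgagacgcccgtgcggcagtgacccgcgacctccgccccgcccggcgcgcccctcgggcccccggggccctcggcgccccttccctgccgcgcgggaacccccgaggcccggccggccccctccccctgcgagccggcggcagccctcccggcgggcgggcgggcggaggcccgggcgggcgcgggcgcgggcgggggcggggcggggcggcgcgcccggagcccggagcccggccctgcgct
LTBP1: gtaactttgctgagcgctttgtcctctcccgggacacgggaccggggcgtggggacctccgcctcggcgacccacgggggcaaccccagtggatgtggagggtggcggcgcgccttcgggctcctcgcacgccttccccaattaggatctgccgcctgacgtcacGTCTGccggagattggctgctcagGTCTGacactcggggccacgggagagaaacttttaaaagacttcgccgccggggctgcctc
TGFBI: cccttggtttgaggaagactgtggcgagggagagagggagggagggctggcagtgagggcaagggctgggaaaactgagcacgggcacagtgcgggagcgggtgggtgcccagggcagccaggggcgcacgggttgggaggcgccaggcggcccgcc
The LTBP1 stretch holds 2 such elements, and the INHBB and TGFBI stretches hold 0. In the window nearest the GENCODE start, TGFBR1, TGFB2 and TGFB3 hold 2 as well, INHBA 1, and TGFB1, TGFBR2 and TGFBR3 0. On either strand, CAGAC occurs in 45.3% of the 35116 windows of all genes, so its presence is common. These are whole windows, which are longer than the printed stretches. The INHBB stretch has 46 CpG dinucleotides in 250 bases and 89.6% GC. Its whole window holds 58 CpG, and 99.9% of all windows hold no more, with a median of 14. The LTBP1 window is the most upstream of the gene, and 2 more RefSeq windows lie downstream of it. A match of letters describes the sequence and does not show a binding site. The gene counts do not tell which start the RNA came from.

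Among the ligands, TGFB1 was by far the most abundant and varied little. TGFB1 (chr19:41301587-41353911, minus strand) had 5439 reads with PBS, and 4898, 5409 and 4534 with normo-Migs, hypo-Migs and CD147KO-Migs. Per length, its level was 48.6 FPKM with PBS and 44.0, 41.3 and 39.6 FPKM with normo-Migs, hypo-Migs and CD147KO-Migs. The PBS library was the highest of the 4. TGFB1 was 0.855 times its PBS level with hypo-Migs (0.823 to 0.888), a log2 fold change of -0.23, which is short of the call. It made up between 93.5% and 94.4% of the summed FPKM of the 3 TGFB ligands in every library. The tables do not state whether reads were counted by strand, and TGFB1 overlaps HNRNPUL1, CCDC97 and TMEM91 on the opposite strand.

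TGFB2 and TGFB3 were low in all libraries. TGFB2 (chr1:218346235-218444619) had 122, 82, 89 and 80 reads with PBS, normo-Migs, hypo-Migs and CD147KO-Migs, a level between 0.427 and 0.685 FPKM. Its 3 log2 fold changes against PBS were -0.66 for hypo-Migs, -0.54 for normo-Migs and -0.62 for CD147KO-Migs, and none was called. TGFB3 (chr14:75958099-75982991) had 373, 436, 413 and 361 reads in the same order, or 2.08 to 2.58 FPKM. It was highest with normo-Migs, 1.24 times the CD147KO-Migs level (1.08 to 1.43) and 1.24 times the hypo-Migs level. TGFB3 lies wholly inside IFT43 on the opposite strand, which had 746 reads with PBS and between 387 and 475 with Migs, so reads of the pair may not be separable.

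The activin subunits INHBA and INHBB behaved differently from each other. INHBB (chr2:120346143-120351808), the chain of activin B, had 52 reads with PBS, and 1196, 1374 and 1376 with normo-Migs, hypo-Migs and CD147KO-Migs. Its level was 0.469 FPKM with PBS (0.351 to 0.615) and 10.9, 10.6 and 12.2 FPKM with the 3 Migs. The PBS library lay far under all Mig libraries, and the latter lay close together. INHBB was 22.7-fold higher with hypo-Migs (17.2 to 30.6), 23.3-fold higher with normo-Migs (17.7 to 31.4) and 26.1-fold higher with CD147KO-Migs (19.8 to 35.1). Set against TGFB1 in the same library, INHBB stood at 0.00966 of the TGFB1 FPKM with PBS and at 0.247, 0.257 and 0.307 with normo-Migs, hypo-Migs and CD147KO-Migs.

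INHBA (chr7:41667168-41705834), the chain of activin A, was barely detected. It had 2 reads with PBS, and 0, 20 and 2 with normo-Migs, hypo-Migs and CD147KO-Migs. The hypo-Migs library was the only 1 above the 3-read floor, at 0.0595 FPKM (0.0364 to 0.0919). Its level there was 8.60 times that with PBS (2.09 to 75.9) and 8.73 times that with CD147KO-Migs (interval from 2.12). It was at least 5.66-fold higher than with normo-Migs, counted against the 3-read floor per library, while the exact counting interval starts at 4.19-fold. Its antisense neighbour INHBA-AS1 had 0 reads in all libraries. Even with hypo-Migs, the INHBA level was far under the 10.6 FPKM of INHBB.

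LTBP1 showed the widest difference among the 10 genes. LTBP1 (chr2:32946972-33399509), which binds latent TGF-beta to the matrix, had 3 reads with PBS, and 1612, 2092 and 1780 with normo-Migs, hypo-Migs and CD147KO-Migs. Its level was 0.0118 FPKM with PBS (0.00244 to 0.0346) and 6.40, 7.05 and 6.87 FPKM with normo-Migs, hypo-Migs and CD147KO-Migs. It was thus near the limit of detection in the PBS library and moderately expressed in the others. The ratio of hypo-Migs to PBS was 599.6 (205 to 2910), the ratio for normo-Migs 544 (186 to 2642) and that for CD147KO-Migs 585 (199.8 to 2838). Among the 19895 tested genes, LTBP1 ranked 41 from the top in hypo-Migs against PBS, and it was 1 of the 251 genes that set the PBS library apart.

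Among the receptors, TGFBR1 was called higher with all 3 Migs, and TGFBR2 was lower and TGFBR3 higher by less than the call. TGFBR1 (chr9:99104038-99154192), the type I receptor kinase, had 1962 reads with PBS, and 7306, 9059 and 6106 with normo-Migs, hypo-Migs and CD147KO-Migs. Its level was 8.29 FPKM with PBS, and 31.1, 32.7 and 25.2 with normo-Migs, hypo-Migs and CD147KO-Migs. All Mig libraries lay well above PBS, and CD147KO-Migs lay below the other two. TGFBR1 was 3.97-fold higher with hypo-Migs than with PBS (3.78 to 4.17), 3.77-fold higher with normo-Migs (3.59 to 3.97) and 3.07-fold higher with CD147KO-Migs (2.91 to 3.23).

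TGFBR2 (chr3:30606502-30694142), the type II kinase that binds the ligand first, had 2636, 1900, 2220 and 1973 reads with PBS, normo-Migs, hypo-Migs and CD147KO-Migs. Its level was 16.2 FPKM with PBS and 11.7 to 11.9 FPKM with Migs. The 3 Mig libraries were nearly equal and all lay under PBS. Its log2 fold change against PBS was -0.47 for hypo-Migs (-0.55 to -0.38), -0.45 for normo-Migs and -0.44 for CD147KO-Migs, none of them called. The 2 receptor kinases thus stood in opposite order with PBS and with Migs. The TGFBR1 to TGFBR2 ratio of FPKM was 0.512 with PBS, and 2.64, 2.81 and 2.13 with normo-Migs, hypo-Migs and CD147KO-Migs. TGFBR3 (chr1:91680343-91906335) had 889 reads with PBS, and 1342, 1712 and 1495 with normo-Migs, hypo-Migs and CD147KO-Migs. It went from 2.95 FPKM with PBS to between 4.49 and 4.86 FPKM with Migs, a log2 fold change of 0.73 with hypo-Migs (0.61 to 0.85), short of the call.

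TGFBI (chr5:136028895-136063818), a secreted matrix protein named for its induction by TGF-beta, was among the most abundant of the 10 genes. It had 3601 reads with PBS, and 11623, 13861 and 9660 with normo-Migs, hypo-Migs and CD147KO-Migs. Its level was 13.3 FPKM with PBS and 43.3, 43.8 and 35.0 FPKM with normo-Migs, hypo-Migs and CD147KO-Migs. As with TGFBR1, the PBS library was lowest and CD147KO-Migs lay between it and the other two. TGFBI was 3.31-fold higher with hypo-Migs than with PBS (3.19 to 3.43), 3.27-fold with normo-Migs (3.15 to 3.40) and 2.64-fold with CD147KO-Migs (2.54 to 2.75).

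**Figure D1:**
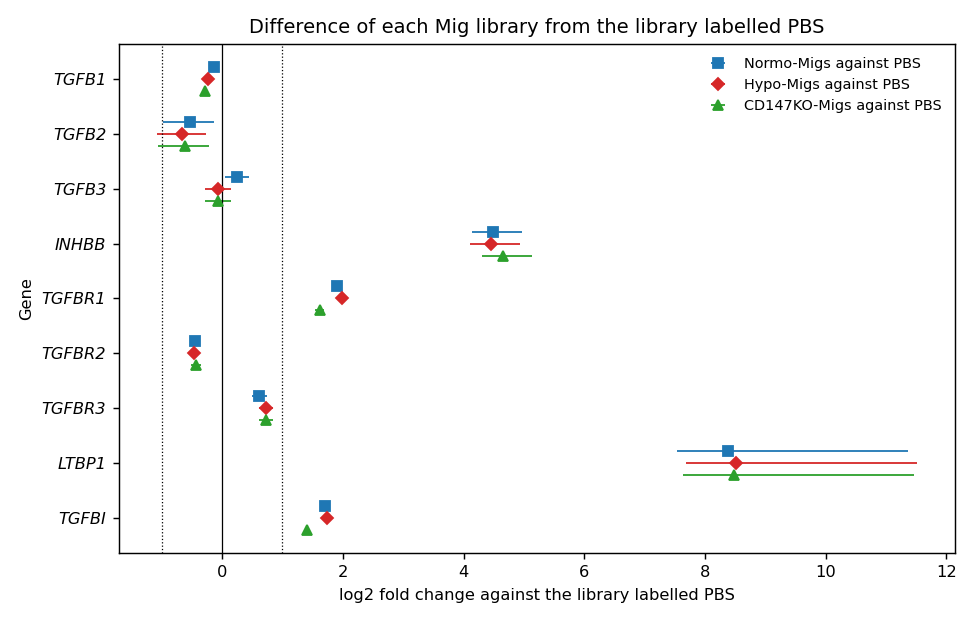
The horizontal axis is the log2 fold change of each Mig library against the library labelled PBS for 9 of the 10 genes, with bars for the exact 95% counting interval and dotted lines at the 2-fold call. INHBA, with at most 2 reads in 3 of the libraries, is left out. LTBP1, INHBB, TGFBR1 and TGFBI lie right of the upper line for all 3 Migs, and the other 5 genes lie between the lines.

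By FPKM, the PBS library ranked TGFB1 first, followed by TGFBR2, TGFBI, TGFBR1, TGFBR3, TGFB3, TGFB2, INHBB, LTBP1 and INHBA. With hypo-Migs the order was TGFBI, TGFB1, TGFBR1, TGFBR2, INHBB, LTBP1, TGFBR3, TGFB3, TGFB2 and INHBA. The first 2 places there were close, since TGFBI had 43.8 FPKM (43.1 to 44.6) and TGFB1 41.3 FPKM (40.2 to 42.4). With normo-Migs TGFB1 and TGFBI stood at 44.0 (42.8 to 45.3) and 43.3 FPKM (42.5 to 44.1), so their order there was not separable by counting error. With CD147KO-Migs INHBB stood at 12.2 FPKM (11.5 to 12.8) beside 11.9 FPKM for TGFBR2 (11.3 to 12.4), which was not separable either.

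The genes whose pattern over the 4 libraries was nearest were named for the most abundant and the most variable of the 10 genes, by the root mean square distance of centred log2 CPM. For TGFB1, among 2943 protein-coding genes of similar mean level, these were PUS7, PA2G4 and CTPS1, at distances of 0.0115 to 0.0132. For LTBP1, among 4847 genes, these were FBLN2, MMP2 and MAGED1, at distances of 0.0859 to 0.151. FBLN2 had 8 reads with PBS and 3329 to 3852 with Migs. MMP2, a matrix metalloproteinase, had 6 reads with PBS and 2836 to 3515 with Migs. With 4 points, of which 1 is the PBS library, such a likeness is a description.

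Beyond the 10 genes, 56 other genes of the pathway were listed and 48 of them had enough reads. With hypo-Migs 14 were called higher than with PBS and 2 lower (18.9% and 11.6% of all tested genes), with normo-Migs 14 and 1 (18.1% and 12.0%), and with CD147KO-Migs 12 and 2 (18.3% and 12.0%). The median log2 fold change of these 48 was 0.37, 0.47 and 0.44, beside 0.03 to 0.04 over all tested genes. The lists were written with earlier results of these data known, so the counts are descriptions.

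Of 5 other ligands tested, GDF11 alone was called higher with all 3 Migs, with 711 reads with PBS, and 2096, 2364 and 1990 with normo-Migs, hypo-Migs and CD147KO-Migs. INHBC, the chain of activin C, had 10, 12, 0 and 2 reads and was at least 3.88-fold lower with hypo-Migs than with PBS when 0 is set to the 3-read floor, while the exact counting interval allows up to 0.384 times the PBS level. GDF15, a stress-induced cytokine, was the most abundant of these ligands, at 21.2 FPKM with PBS and 13.1 to 15.3 FPKM with Migs. Of 6 other receptors and co-receptors, none was called with hypo-Migs against PBS, where 18.9% of all tested genes were called higher and 11.6% lower. ENG (endoglin) had 6.39 FPKM with PBS and 10.4 to 12.3 FPKM with Migs, and the activin receptor ACVR1B had between 5.54 and 6.83 FPKM throughout. ACVR1C was called higher with normo-Migs and CD147KO-Migs, at 4 reads with PBS, and 21, 7 and 12 with normo-Migs, hypo-Migs and CD147KO-Migs.

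Of 9 genes of the latent complex and its activation, 3 were called higher with hypo-Migs (LTBP2, LTBP3 and FURIN) and 1 lower (ITGB8). Of all tested genes, 18.9% were called higher and 11.6% lower. LTBP2 had 65 reads with PBS, and 499, 433 and 439 with normo-Migs, hypo-Migs and CD147KO-Migs, 5.73-fold higher with hypo-Migs. LTBP3 had 1742, 5052, 5416 and 5091 reads in this order. Like LTBP1, both were lowest in the PBS library. FURIN, the protease that cleaves the TGF-beta precursor, stood at 40.2 FPKM with PBS and 112.8 to 122.8 FPKM with Migs. ITGB8, whose integrin frees TGF-beta from its latent form, went the other way, from 2059 reads with PBS to 308, 382 and 398 with normo-Migs, hypo-Migs and CD147KO-Migs. Its partner ITGAV had 16.8 FPKM with PBS and 20.3 to 24.5 FPKM with Migs, which was not called. ITGB6, another partner of ITGAV, had 8, 35, 12 and 18 reads and was called higher with normo-Migs.

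None of the 6 intracellular mediators was called in any comparison with PBS. Of all tested genes, 18.1% to 18.9% were called higher and 11.6% to 12.0% lower. SMAD3 stood at 9.84 FPKM with PBS and 6.29 to 7.49 FPKM with Migs, and the kinase MAP3K7 at 6.01 and 8.51 to 9.57 FPKM. Their log2 fold changes with hypo-Migs ranged from -0.57 for SMAD3 to 0.68 for MAP3K7.

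Of 12 inhibitors tested, 4 were called higher with hypo-Migs (FST, PMEPA1, DCN and SKIL) and none lower. Of all tested genes, 18.9% were called higher and 11.6% lower. SKIL lay at the limit of the call (log2 1.00) and was not called with normo-Migs (0.86) or CD147KO-Migs (0.73). FST (follistatin), which binds and neutralises activins, had 4 reads with PBS, and 337, 574 and 375 with normo-Migs, hypo-Migs and CD147KO-Migs. It was 123-fold higher with hypo-Migs than with PBS (interval from 47.9) and 1.45-fold higher than with normo-Migs (1.26 at the lower bound). PMEPA1, a feedback inhibitor that is itself induced by TGF-beta, had 600, 3533, 4138 and 3103 reads in the same order, 5.93-fold higher with hypo-Migs than with PBS. DCN (decorin), also in the fibroblast list, had 22, 77, 156 and 138 reads. FSTL3, a relative of follistatin, was the most abundant inhibitor at 210.5 FPKM with PBS and 175.8 to 186.7 FPKM with Migs, and SKI stood at 13.3 FPKM with PBS and 16.0 to 16.7 FPKM with Migs.

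Of 10 target genes tested, 6, 5 and 4 were called higher in the hypo-Migs, normo-Migs and CD147KO-Migs libraries than with PBS (18.9%, 18.1% and 18.3% of all tested genes), and none was called lower. These counts differ only through JUNB (log2 1.01, 1.00 and 0.98) and TPM1 (1.26, 1.14 and 0.99), the values being those of hypo-Migs, normo-Migs and CD147KO-Migs, and JUNB in all 3 and TPM1 with CD147KO-Migs lay at the limit of the call. TPM1 was named after its values were seen. Their median log2 fold change was 1.14, 1.07 and 0.99. FN1 (fibronectin) had 548 reads with PBS, and 15712, 18900 and 13976 with normo-Migs, hypo-Migs and CD147KO-Migs, and was 29.7-fold higher with hypo-Migs. COL1A1 was 5.07-fold higher with hypo-Migs and CTGF 4.87-fold higher, at 4017 against 681 reads and 249 against 44 reads. COL1A1 is at the same time a fibroblast marker, whose partner chain COL1A2 was at 0 with Migs. With PBS, COL1A2 did not exceed the 3-read floor either. JUNB had 32.6 FPKM with PBS and 63.9 to 65.2 FPKM with Migs. CYR61 went the other way without being called, from 32.9 FPKM with PBS to 18.9 to 22.2 FPKM with Migs. The PBS library was thus lowest for most of the targets and highest for CYR61.

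The comparisons among the Mig libraries ask what hypoxia and CD147 of the donor cells changed. They used the PBS library only for the scaling and the choice of tested genes, which were set on all 4 libraries. Normo-Migs and CD147KO-Migs differ in both the oxygen and the CD147 of the donor cells. Of the 10 genes, INHBA alone was called higher with hypo-Migs, against normo-Migs (9.34% of all tested genes were called in either direction) and against CD147KO-Migs (9.12%). INHBA was tested only because of its reads in the hypo-Migs library, so these calls were favoured by the filter and are descriptions. It also passed the fold between normo-Migs and CD147KO-Migs (9.69% of all genes), but at 0 and 2 reads it is given no fold. The other 9 genes lay between log2 fold changes of -0.31 and 0.14 in hypo-Migs against normo-Migs, between -0.20 and 0.37 in hypo-Migs against CD147KO-Migs and between -0.16 and 0.31 in normo-Migs against CD147KO-Migs. Each of these is a difference of less than 1.5-fold. LTBP1 and INHBB, the widest against PBS among genes with reads enough in all Mig libraries, differed between Mig libraries by at most 0.14 and 0.20 on the log2 scale.

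TGFBR1 and TGFBI were lower with CD147KO-Migs than with either other kind of Migs. TGFBR1 was 1.29-fold higher with hypo-Migs than with CD147KO-Migs (log2 0.37, 0.33 to 0.42) and 1.23-fold higher with normo-Migs than with CD147KO-Migs (1.19 to 1.27). TGFBI was 1.25-fold higher with hypo-Migs than with CD147KO-Migs (1.22 to 1.28) and 1.24-fold higher with normo-Migs (1.20 to 1.27). Between hypo-Migs and normo-Migs, TGFBR1 differed by 0.07 on the log2 scale and TGFBI by 0.02. Both differences from CD147KO-Migs rest on that 1 library.

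For scale, 7008 genes had a mean of at least 1000 reads over the 3 Mig libraries, a limit set after the data were seen. Of these, 29 (0.414%) differed between hypo-Migs and CD147KO-Migs by as much as TGFBR1 did, in either direction, and 56 (0.799%) by as much as TGFBI. In normo-Migs against CD147KO-Migs these shares were 1.86% and 1.73%. In hypo-Migs against normo-Migs they were 47.9% and 85.9%, so there the differences of TGFBR1 and TGFBI were of the usual size. GC content moved with the hypo-Migs comparison. The genes were divided by GC content into 5 groups of equal size. From the group of lowest to that of highest GC, the median difference between hypo-Migs and CD147KO-Migs went from 0.05 to -0.07 on the log2 scale. TGFBR1, at 39.0% GC, is in the lowest group, and TGFBI, at 50.6%, is in the middle one. In normo-Migs against CD147KO-Migs, which shares the CD147KO-Migs library, the medians of all 5 groups were 0.01 to 0.02, and TGFBR1 differed by 0.30. The part of GC content in the TGFBR1 differences was not tested.

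INHBB went the other way, with its highest level with CD147KO-Migs. Hypo-Migs gave 0.871 times the INHBB level of CD147KO-Migs (0.808 to 0.940), and 6.49% of the 7008 genes differed by as much. TGFBR2 did not differ beyond counting error between any pair of Mig libraries, with a log2 difference of -0.03 between hypo-Migs and CD147KO-Migs (-0.11 to 0.06). For TGFBR3 the log2 interval in that pair ran from -0.10 to 0.10. For TGFB2, the interval between hypo-Migs and CD147KO-Migs ran from -0.49 to 0.41, so a moderate difference would not have been detectable at 80 to 89 reads. Counted over the 10 genes, the interval lay above equality in 4 and below it in 1 for hypo-Migs against CD147KO-Migs, where 17.3% and 17.6% of all tested genes did so. For hypo-Migs against normo-Migs it was 4 above and 2 below (16.6% and 18.2% of all genes), and for normo-Migs against CD147KO-Migs 4 above and 3 below (17.9% and 16.6%). INHBA is 1 of the 4 above equality in both comparisons of hypo-Migs. It was tested only because of its reads in the hypo-Migs library, so its place there was favoured by the filter. All tested genes include many with few reads, whose intervals are wide.

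The other genes of the pathway did not move one way between hypo-Migs and CD147KO-Migs. Of the 48 tested, the counting interval lay above equality in 11 and below it in 14 (17.3% and 17.6% of all tested genes), with a median log2 fold change of -0.03. Those below, higher with CD147KO-Migs, included SMAD3 (log2 -0.18), LTBP2 (-0.22), LTBP3 (-0.11), ITGB8 (-0.25), FURIN (-0.10), FSTL3 (-0.09) and GDF15 (-0.22). The target gene list had a median log2 fold change of 0.12 in hypo-Migs against CD147KO-Migs and of 0.11 in normo-Migs against CD147KO-Migs, beside 0.00 in hypo-Migs against normo-Migs and 0.00 over all tested genes. FN1 was 1.18-fold higher with hypo-Migs than with CD147KO-Migs (1.15 at the lower bound), PMEPA1 1.16-fold (1.11) and ITGAV 1.21-fold (1.17). Genes that differed as much made up 3.25%, 4.50% and 1.86% of the 7008, and 31.3% for FURIN, which went the other way. In normo-Migs against CD147KO-Migs the shares for FN1, PMEPA1 and ITGAV were 7.43%, 5.59% and 3.44%. ITGAV is in the group of lowest GC and FN1 in the next. Their group medians in hypo-Migs against CD147KO-Migs were 0.05 and 0.04. The part of GC content in these differences was not tested. Of the 10 target genes, the counting interval in hypo-Migs against CD147KO-Migs lay above equality in 3 (FN1, TPM1 and TAGLN) and below it in 1 (CYR61). TPM1 and TAGLN had log2 differences of 0.27 and 0.87, and CYR61 had -0.23. COL1A1, CTGF and JUNB had 0.01, -0.04 and 0.03.

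Between Mig libraries, 9.34%, 9.12% and 9.69% of all tested genes were called in hypo-Migs against normo-Migs, hypo-Migs against CD147KO-Migs and normo-Migs against CD147KO-Migs. Of the 48 other pathway genes, 3, 1 and 3 were called in the same pairs. In hypo-Migs against normo-Migs these were INHBC, ACVR1C and ITGB6, all lower with hypo-Migs and all with at most 35 reads in any library. In hypo-Migs against CD147KO-Migs INHBC passed the fold at 0 and 2 reads and is given no fold. In normo-Migs against CD147KO-Migs 3 were called higher, INHBC, TAGLN and IL11, of which TAGLN and IL11 were named after their values were seen. TAGLN had 164, 174 and 82 reads in the normo-Migs, hypo-Migs and CD147KO-Migs libraries, and the cytokine IL11 had 119, 69 and 48.

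**Figure D2:**
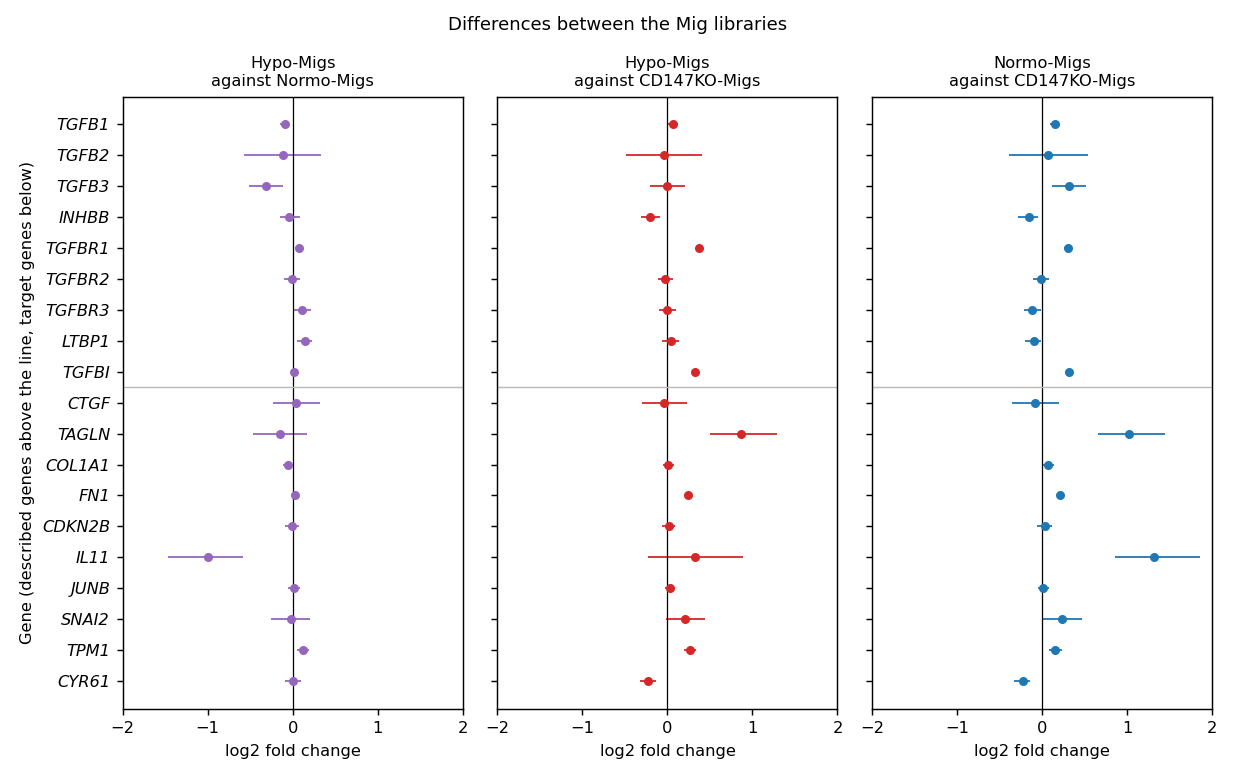
The log2 fold changes between the Mig libraries are plotted in 3 panels for 9 of the 10 genes, above the grey line, and for the 10 tested target genes, below it, with bars for the exact 95% counting interval. INHBA is left out, and points without a visible bar have intervals narrower than the symbol. TGFBR1, TGFBI, TGFB1, FN1, TPM1 and TAGLN lie right of 0 in both comparisons with CD147KO-Migs, with intervals that exclude 0. INHBB and CYR61 lie left of 0 in both, also with intervals that exclude 0.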

How the data were processed

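RNA was sequenced from 4 cultures of MHCC-97H cells, 1 library per condition. The labels name a SMARTer mRNA kit, whereas the supplementary methods describe poly-T beads and random hexamers. The submitters' processing notes list CASAVA 1.8, fastp, HISAT2 2.0.5, featureCounts 1.5.0-p3 and the hg38 build. The strand setting of the counting is not given in the sources used here. The authors deposited raw counts of reads per gene, without normalization. They also deposited FPKM values, scaled by gene length and library size. All 10 genes were matched by identifier, and 58724 of the 58735 genes matched a gene record of GENCODE 29. GC content was taken from the longest GENCODE 29 transcript of each gene.

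Genes needed 10 or more reads in 1 or more libraries, which kept 19895. Log2 fold changes came from edgeR 4.0.16 in R 4.3.3, with TMM scaling and a prior count of 2. Intervals of levels are exact Poisson and those of ratios exact binomial (scipy 1.17.1), at 95%, and cover counting error only. The floor for a count of 0 was 3 reads, or 0.0745 to 0.0885 CPM. The study's methods name DESeq2, which cannot estimate a spread from 1 library per condition, so only the fold criterion was kept. The code was tested on simulated data. Alternatives concerned DESeq2 1.42.0 size factors, library totals, the filter, the prior count, log2(FPKM + 1) and a 1.5-fold call.

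The 10 genes and the pathway and marker lists were chosen with earlier results of these data known. All 10 genes are named. From each list were named up to 3 called genes per direction with the largest change in each comparison of hypo-Migs, up to 2 genes with the highest mean FPKM, genes overlapping the 10, and the 3 genes of nearest pattern for TGFB1 and LTBP1. Genes outside this rule are said to be so, except where they complete a count. Shares among deeply sequenced genes and 5 groups by GC content were added after the data were seen. 1 target gene is not reported here and was left out of the lists and their counts.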

Additional observations from a re-analysis of the deposited data

How the results depend on the processing

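No paired analysis was possible because each condition had 1 library, and for the same reason no library could be left out of a condition. With a minimum of 10 reads in each library, INHBA and LTBP1 were not tested, and of the remaining 8 genes 3 were called in hypo-Migs against PBS, 3 in normo-Migs against PBS and 0 in each pair of Mig libraries. On log2(FPKM + 1), 0 of the 10 genes were called in each pair of Mig libraries, since a pseudocount of 1 shrinks INHBA. Under DESeq2 size factors, library totals and a prior count of 0.25, none of the 60 fold changes of the 10 genes over 6 comparisons moved beyond counting error, although a value near 0 can lose its sign (TGFBR2 in hypo-Migs against normo-Migs was -0.01, and 0.00 under library totals), and on log2(FPKM + 1) 41 of 60 did not move beyond counting error, 19 moved and 0 reversed.

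Over all genes, the order here is hypo-Migs, normo-Migs and CD147KO-Migs against PBS, then hypo-Migs against normo-Migs, hypo-Migs against CD147KO-Migs and normo-Migs against CD147KO-Migs. The counts called were 6067, 6003, 6033, 1858, 1814 and 1928. Without a filter they were 9625, 10676, 10759, 5103, 4968 and 5930. With 10 reads in every library they were 2744, 2684, 2753, 253, 233 and 264. On log2(FPKM + 1) they were 1674, 1619, 1658, 56, 80 and 66. With a 1.5-fold call they were 9696, 9614, 9704, 3630, 3662 and 3676. Few reads limit INHBA, TGFB2 and the PBS value of LTBP1, and the spread between cultures of 1 condition is unknown for every value.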
